A study of Mus musculus with 13 samples.

Results

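Sox1 and Sox2 encode transcription factors of the SoxB1 group. The peaks described here lie in a 650-kb window around Sox2, from 34.2 to 34.85 Mb on chromosome 3, and a 400-kb window around Sox1, from 12.2 to 12.6 Mb on chromosome 8, on the mouse build mm9. A peak belongs to a window when its centre lies inside it. By this rule 37 of the 23280 peaks in the 4 lists of the study were members, 21 around Sox2 and 16 around Sox1. Around Sox2 there were 7 Nkx2.2, 6 Nkx6.1, 6 Olig2 and 2 Gli3 peaks. Around Sox1 there were 1 Nkx2.2, 4 Nkx6.1, 10 Olig2 and 1 Gli3 peaks.

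The lists come from ChIP-seq, which sequences the DNA that an antibody pulls down together with the factor bound to it. The cells were neural progenitors grown out of mouse embryonic stem cells. All cultures spent 2 days in suspension and then 3 days in medium with 500 nM all-trans retinoic acid. For Nkx2.2, Nkx6.1 and Olig2 the medium also held 160 to 800 nM of SAG, a Smoothened agonist that switches on Sonic hedgehog signalling, and the labels call these cells ventral. For Gli3 the agonist was left out, and the labels call those cells dorsal. Each ventral factor had 2 ChIP libraries. Line YFP3.1 gave the first library of Olig2 and that of Nkx6.1, and the remaining 4 were from the YFP3.1 derivative called Rosa26-Gli1FLAG, all on a background mixed from Swiss Webster, 129 Sv and C57BL6/J. The antibodies were cocktails for Nkx2.2 and Nkx6.1 and a single product for Olig2. Gli3 had 1 ChIP library, made with anti-FLAG M2 from V6.5 cells (C57BL/6 X 129/sv) in which a 3xFLAG-Avi tag was inserted at the initiation codon of Gli3. With 6 input libraries, of chromatin without immunoprecipitation, the series has 13. The factor, the medium, the line and the antibody therefore cannot be told apart when Gli3 is set beside the ventral factors. There is 1 peak list per factor, so no spread between replicates can be given for a peak count, and the counts below are descriptions without a test. The files used here hold no expression values, so the identity of the cells was not checked against markers.

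SoxB1 proteins bind DNA through an HMG box and are known for keeping neural progenitors in an undifferentiated state. Sox2 is also a core factor of pluripotent stem cells, while Sox1 is an early marker of the neural plate. Nkx2.2 and Nkx6.1 are homeodomain proteins and Olig2 is a basic helix-loop-helix protein. All are induced by Sonic hedgehog in the ventral neural tube, where they act largely as repressors that set the borders between progenitor domains. Gli3 is a zinc-finger protein that, without the hedgehog signal, is cut to a repressor form.

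In the RefSeq gene table, which is on another build (GRCm38.p6) and was used only for names and order, Sox2 lies within the long noncoding RNA gene Sox2ot, with Dnajc19 and Atp11b as its nearest protein-coding neighbours. Sox1 lies within Sox1ot, between A230072I06Rik and Spaca7. An annotation of mm9 was not used here, so whether a peak is exonic, intronic or intergenic, and its distance from a start site, is not given.

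The sequences at the peaks were not analysed here, as no mm9 genome was used. RefSeq gives the promoters of both genes on GRCm38.p6, and the 250 bases before each start, on the plus strand, are shown because they are the stretch of each gene that could be searched for motifs of the factors profiled. They contain none of the motifs named below, so no base is in capitals:

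Sox2: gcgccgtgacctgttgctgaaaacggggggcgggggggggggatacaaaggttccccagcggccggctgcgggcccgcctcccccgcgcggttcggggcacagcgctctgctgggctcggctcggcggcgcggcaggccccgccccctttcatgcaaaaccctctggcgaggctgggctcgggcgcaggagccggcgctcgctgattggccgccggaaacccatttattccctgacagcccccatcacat

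Sox1: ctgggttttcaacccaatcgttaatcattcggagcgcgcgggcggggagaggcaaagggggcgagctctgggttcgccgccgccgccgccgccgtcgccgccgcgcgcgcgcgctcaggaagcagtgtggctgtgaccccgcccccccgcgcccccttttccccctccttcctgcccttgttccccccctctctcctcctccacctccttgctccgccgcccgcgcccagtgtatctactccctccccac

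Both stretches are rich in G and C, at 72% for Sox2 and 71.2% for Sox1, against a median of 52.4% over the 32851 promoters of the table. Searched on both strands, neither held the E-box CANNTG of basic helix-loop-helix factors, which 66.2% of all promoters hold in these 250 bases. Neither held AAGTG of Nkx2-class factors (40.7% of all), TAATT of homeodomain factors (25.0%), ACAAT of Sox factors (27.7%) or the Gli motif GACCACCCA (0.225%). With the next 50 bases added, Sox2 had 1 E-box and Sox1 had none, while 72.3% of promoters had at least 1. These counts describe letters only, for exactly these strings, and other variants of the sites were not searched. Whether a peak lies at either promoter was not analysed here.

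Around Sox2 the peaks of all 4 lists were denser than in their lists as a whole. The 7 Nkx2.2 peaks amount to 10.8 per Mb, 5.11 times the 2.11 per Mb of the whole list, and only 1.70% of 650-kb windows laid end to end over the genome held as many. The 6 Nkx6.1 peaks amount to 9.23 per Mb, 5.94 times the list, a number reached in 1.52% of such windows. The 6 Olig2 peaks were 2.07 times the density of their much longer list, and 16.7% of windows held as many. The 2 Gli3 peaks amount to 3.08 per Mb, 4.30 times their list, and 10.6% of windows held as many.

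Around Sox1 the balance was different, with 10 of the 16 peaks coming from Olig2, against 6 of the 21 around Sox2. The Olig2 list also gives 11747 of the 23280 peaks of the study. The 10 Olig2 peaks amount to 25.0 per Mb, 5.61 times the whole list, and 1.00% of 400-kb windows held as many. The 4 Nkx6.1 peaks amount to 10.0 per Mb, 6.44 times their list (2.23% of windows). The single Nkx2.2 peak was 1.19 times the density of its list, and 44.5% of windows held at least 1. The single Gli3 peak was 3.49 times the density of its list, and 18.6% of windows of this length held at least 1. Both counts depend on where the window ends: widened by 50 kb on each side, it held 3 Nkx2.2 and 2 Gli3 peaks. The windows differ in length, so counts were compared with windows of the same length only, and the difference between the loci was not tested.

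**Figure D1:**
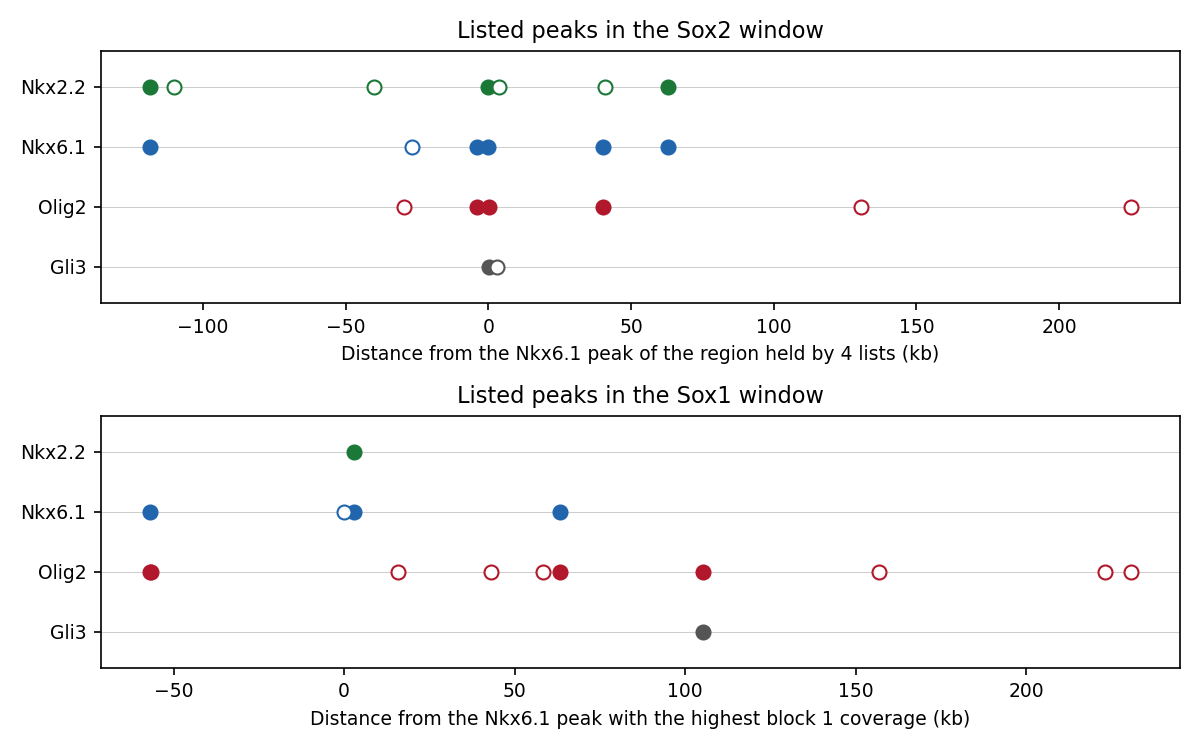
Positions of the 37 member peaks, by list (rows), as the distance in kb from the Nkx6.1 peak of the region held by all 4 lists (Sox2, top) or from the Nkx6.1 peak with the highest block 1 coverage (Sox1, bottom). Filled points share at least 1 bp with a peak of another list and open points do not; the 2 outermost Olig2 peaks at Sox2, at 130.4 and 225.1 kb, have no partner.

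Joined where they shared at least 1 bp, the 21 Sox2 peaks formed 14 regions spanning 344.1 kb. Of these, 9 held 1 list, 4 held 2 and 1 held all 4. The 13 regions with a ventral factor included 5 with 2 or more of the ventral factors, where 14.6% of the 17913 ventral regions of the study did so. The pair of Nkx2.2 and Nkx6.1 without Olig2 made up 2 of the 13, against 1.76% of all ventral regions, and that of Nkx6.1 and Olig2 without Nkx2.2 made up another 2, against 5.64%. No region held Nkx2.2 and Olig2 without Nkx6.1, a pair at 4.15% of all.

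Nkx6.1 had the largest share of peaks at another ventral factor in the Sox2 window, as it also had over the whole lists. Of its 6 peaks, 5 overlapped another ventral factor (46.7% of the whole Nkx6.1 list), 3 of them Nkx2.2 and 3 of them Olig2. Of the 7 Nkx2.2 peaks, 3 did so (30.3% of the list), and of the 6 Olig2 peaks, 3 did so (20.1% of the list). With so few peaks these counts are given beside the shares of the lists and nothing more is read from them.

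The strength of a peak was read from the deposited coverage tables, which give each ventral peak 3 profiles reaching 2000 bp to either side, here called blocks 1, 2 and 3. Their headers name no library. Strength is the mean coverage within 250 bp of the centre, in the units of the table, and the percentile is the peak's rank in its own list. Levels were compared only within a table. Block 3 of the Nkx6.1 and Olig2 tables was found to be 1 and the same library: at 80 pairs of peaks whose centres lie a whole number of 25-bp steps apart, all 10865 aligned values were equal, while other pairings of blocks between tables had 4.22% to 19.2% equal values. The labels name 1 library for both factors, the input of their replicate 2, and give no other library to both. Block 3 is the only block that is the same in these tables. The headers name no library, so none was assigned, and block 3 of these tables is not read as binding. Median block 3 coverage over the lists was 0.672 units for Nkx6.1 and 0.710 for Olig2, against 10.4 and 11.3 in block 1.

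The region from 34340202 to 34340585 on chromosome 3 was the only member held by all 4 lists, a class that makes up 0.367% of the 19087 regions of the study. The Nkx2.2, Nkx6.1 and Olig2 centres lay 7 to 17 bp from each other, and the Gli3 centre lay 67 to 84 bp to their right. In blocks 1 and 2 its ventral peaks lay between percentiles 26.2 and 67.2 of their lists, with the Nkx6.1 peak in block 1 the lowest. In blocks 1, 2 and 3 the Nkx2.2 peak had 16.8, 4.76 and 0.652 units, at percentiles 42.1, 53.5 and 19.97. The Nkx6.1 peak had 7.83, 5.94 and 0.784 units, at percentiles 26.2, 56.8 and 60.97. The Olig2 peak had 15.6, 10.1 and 0.747 units, at percentiles 67.2, 58.7 and 53.9. In blocks 1 and 2 all these profiles were highest within 50 bp of the centre, and block 3 was highest elsewhere.

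**Figure D2:**
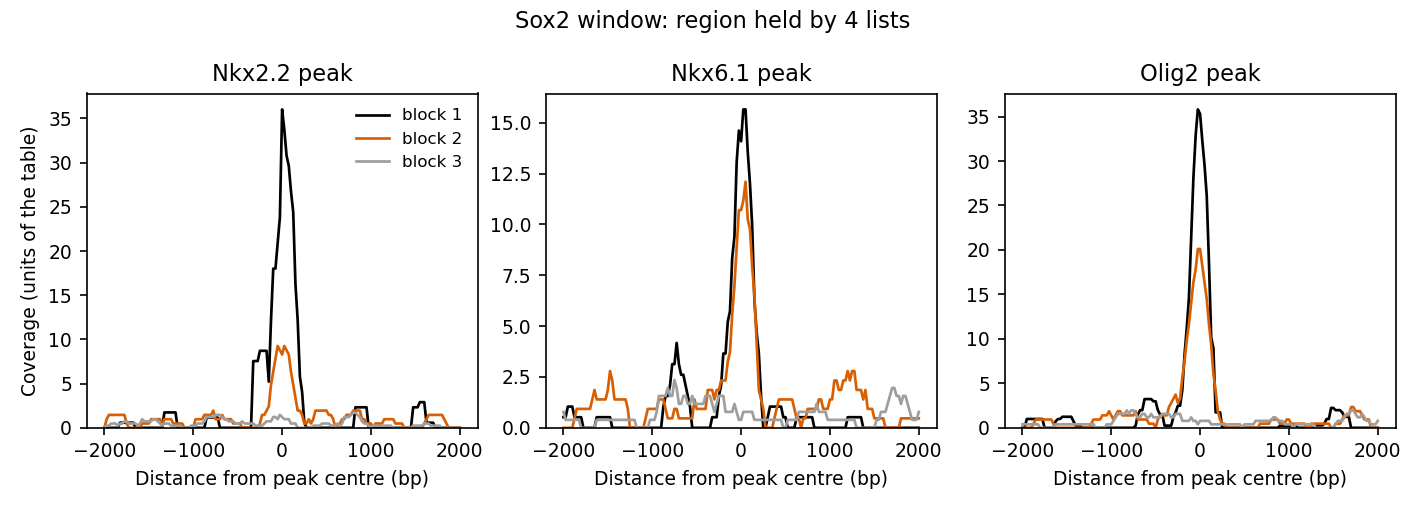
Coverage (units of each table) within 2000 bp of the Nkx2.2, Nkx6.1 and Olig2 peaks of the Sox2 region held by all 4 lists, 1 line per block. Blocks 1 and 2 have their summit near the centre, reaching 36.01 and 9.26 units for Nkx2.2, 15.7 and 12.1 for Nkx6.1 and 35.8 and 20.1 for Olig2; block 3 is highest away from the centre.

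Near it lay the other Gli3 peak of the Sox2 window, from 34343196 to 34343495, and an Nkx2.2 peak from 34343725 to 34344024. They did not overlap, and their centres lay 529 bp apart. The Nkx2.2 table reaches far enough to read Nkx2.2 coverage at the Gli3 centre. In block 1 it was 5.49 units there against 19.7 at the Nkx2.2 centre, and in block 2 it was 3.95 units against 2.72. The 2 blocks thus differ in which position is higher. Block 3 had 0.880 units at the Gli3 centre and 0.303 at the Nkx2.2 centre. By overlap, 1 of the 2 Gli3 peaks of the window lay at a ventral peak, where 36.3% of all Gli3 peaks overlapped one. Counted by centres within 1000 bp instead, both did. The share of all Gli3 peaks by that wider rule was not computed, so nothing is read from the second count.

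The strongest Nkx2.2 member lay farthest to the left, in the region from 34221514 to 34221856 that Nkx2.2 shared with Nkx6.1. Its Nkx2.2 peak had 48.6, 12.3 and 2.26 units in blocks 1, 2 and 3, at percentiles 93.6, 88.8 and 83.8. Block 3 of the Nkx2.2 table was thus raised there too, above its list median of 1.20, and its part in the result was not tested. The Nkx6.1 peak, 43 bp away, was weaker in its own list, with 8.92, 4.81 and 0.504 units at percentiles 37.4, 46.3 and 34.1.

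The second region of Nkx2.2 and Nkx6.1, from 34403211 to 34403531, had the reverse order. Its Nkx6.1 peak had 14.7, 8.64 and 0.579 units in blocks 1, 2 and 3, at percentiles 74.2, 73.96 and 41.5. Its Nkx2.2 peak, 21 bp away, had 15.1, 3.48 and 0.268 units, at percentiles 32.3, 35.2 and 2.77. The same pair of factors therefore ranked high in opposite lists at the 2 regions.

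Nkx6.1 and Olig2 without Nkx2.2 met at 2 regions around Sox2. From 34336066 to 34336386 the Nkx6.1 peak was the strongest of the 6 in block 1, with 16, 9.46 and 0.261 units at percentiles 77.9, 77.6 and 11.8. The Olig2 peak there, 21 bp away, was ranked unlike by the blocks, with 8.38 units in block 1 (percentile 28.6) and 13.2 in block 2 (percentile 69.7). Block 3 was low, at 0.224 units.

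From 34380308 to 34380731 the Nkx6.1 peak had 11.8, 6.87 and 0.560 units and the overlapping Olig2 peak had 14.6, 9.26 and 0.616. An Nkx2.2 peak from 34381139 to 34381438 did not reach this region, with its centre 707 bp from that of Nkx6.1 and 831 bp from that of Olig2, and the profiles of the tables overlap here. Nkx2.2 coverage in block 1 was 11.9 units at its own centre, 4.53 at the Nkx6.1 centre and 2.85 at the Olig2 centre. Nkx6.1 coverage in block 1 was 2.87 units at the Nkx2.2 centre, and Olig2 coverage was 0.870 there. In block 1 each factor was thus higher at its own centre than at the centre of the other peak. Each centre is where the peak of that factor was called, so this order follows from the choice of positions and nothing is read from it. In block 2 Nkx2.2 had 2.16 units at its own centre and 1.27 at the Nkx6.1 centre, while Olig2 had 4.56 units at the Nkx2.2 centre against 9.26 at its own. The highest block 2 value of the Nkx2.2 profile lay outside its peak, with 3.41 units at 34380763 against 2.93 within 250 bp of the centre.

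The remaining Sox2 peaks stood alone. Olig2 had 3 such peaks, and the one from 34470627 to 34470926 was the strongest Olig2 member of the window, with 17.8 units in block 1 (percentile 72.8), 39.95 in block 2 (percentile 95.4) and 0.504 in block 3. The Olig2 peak farthest to the right, from 34565337 to 34565636, was among the weakest of its list in block 1, with 5.71 units (percentile 4.83), but not in block 2, with 9.58 (percentile 56.02). Nkx2.2 stood alone at 4 peaks with 11.9 to 19.7 units in block 1, and Nkx6.1 at 1 peak with 8.72.

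As a group the Sox2 peaks ranked near the middle of their lists, except that Nkx2.2 ranked lower in block 2. Nkx2.2 peaks had a median percentile of 42.1 in block 1 and 27.9 in block 2. Those of Nkx6.1 had 48.6 and 60.5, and those of Olig2 had 58.3 and 57.3. Of the 19 ventral peaks, 1 in block 1 and 1 in block 2 passed percentile 90. They were the Nkx2.2 peak at 34221514 in block 1 and the Olig2 peak at 34470627 in block 2. Every list has, by definition, a fixed small share of peaks above this percentile, so nothing is read from the count.

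Around Sox1, the 16 peaks formed 11 regions spanning 287.9 kb, of which 7 held 1 list and 4 held 2. Of the 11 regions, all with a ventral factor, 3 held 2 ventral factors, against the 14.6% given above. Of the 4 Nkx6.1 peaks, 3 overlapped another ventral factor (46.7% of the whole list). The single Nkx2.2 peak did so (30.3% of the list), as did 3 of the 10 Olig2 peaks (20.1% of the list). The Gli3 peak overlapped an Olig2 peak, where 36.3% of all Gli3 peaks overlapped a ventral one. Nothing more is read from these counts either.

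All 4 Nkx6.1 peaks of the Sox1 window lay above the median of their list in blocks 1 and 2, with median percentiles of 94.003 and 84.2. The peak from 12325118 to 12325417 had 87.7 units in block 1 and 34.9 in block 2, and was number 9 of 4094 in block 1 and number 38 in block 2. It stood on line 8 of the deposited list, whose order follows block 1 coverage (Spearman's rho -0.89 across the 4094 peaks, as a description). No other list had a peak there. Block 3 had 1.85 units, at percentile 97.8, so it ranked high as well, and its part in the result was not tested.

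The next Nkx6.1 peak lay 2.78 kb to the right, in the region from 12327896 to 12328199, which it shared with the single Nkx2.2 peak of the window. It had 42.6, 21.2 and 1.195 units in blocks 1, 2 and 3, at percentiles 97.7, 96.1 and 85.7. The Nkx2.2 centre was 4 bp away, and that peak had 30.3, 12.3 and 1.26 units in its own table, at percentiles 82.03, 88.8 and 52.3. The right flank was raised in block 1 of the Nkx2.2 table. The last 250 bp of the profile on the right had 6.81 units, where the list has a median of 0. In block 2 the same flank was not raised, with 0.443 units against a list median of 0.488. Ranked by block 1 centre over block 1 right flank, each with 1 added, the Nkx2.2 peak fell to percentile 7.57.

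**Figure D3:**
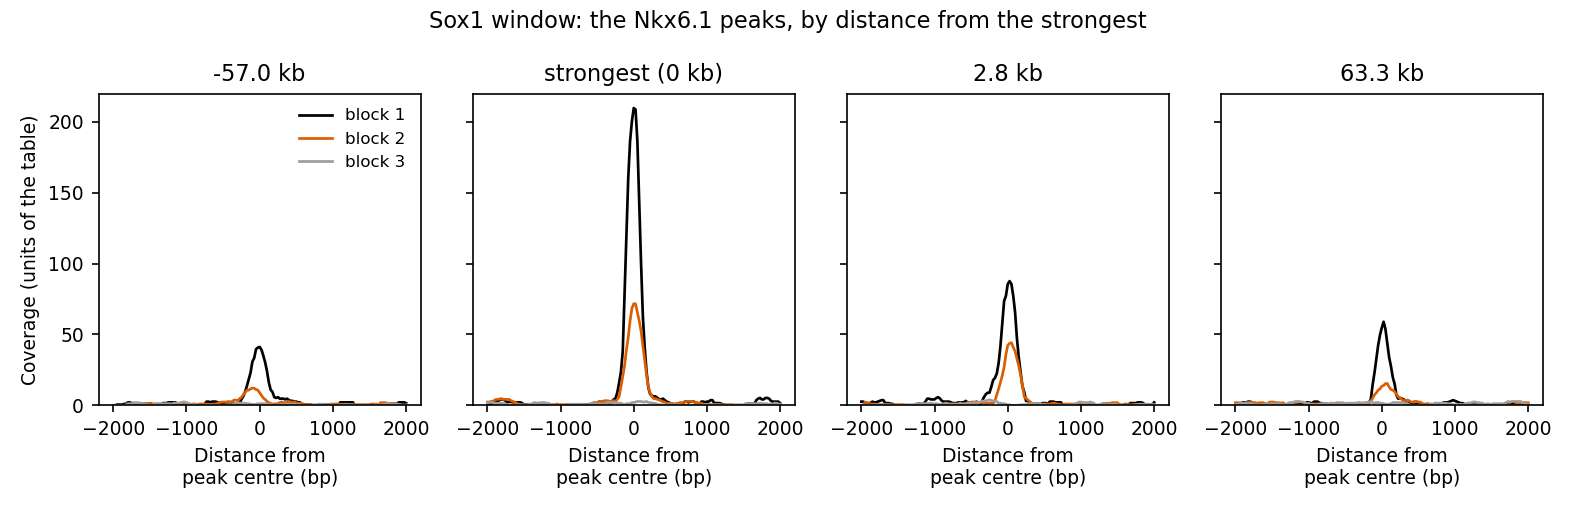
Coverage (units of the Nkx6.1 table) within 2000 bp of the 4 Nkx6.1 peaks of the Sox1 window, titled by distance from the strongest, 1 line per block. Block 1 reaches 209.7 units at the strongest peak and 41.2, 87.7 and 58.96 at the others from left to right; block 2 reaches 71.7 and 12.1, 44.2 and 15.4; block 3 stays below 4 units in all.

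The other 2 Nkx6.1 peaks around Sox1 were shared with Olig2. From 12268164 to 12268668 an Nkx6.1 peak overlapped 2 Olig2 peaks that themselves overlap, so the Olig2 peaks share coverage and are not independent. Nkx6.1 had 21.04, 6.49 and 0.896 units there, at percentiles 87.7, 61.03 and 69.8. Olig2 had 12.8 units in block 1 at the left peak and 27.4 at the right one, with 13.4 and 13.7 in block 2.

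From 12388311 to 12388729 the Nkx6.1 peak had 23.7, 8.29 and 1.70 units in blocks 1, 2 and 3, at percentiles 90.3, 72.3 and 96.8. The overlapping Olig2 peak had 19.4, 13.0 and 1.72 units, at percentiles 75.8, 69.1 and 95.4. Block 3, 1 library in both tables, was therefore among the highest of either list at this region, and it also had 2.14 and 2.17 units in the right flank of the 2 peaks. Its part in the peak calls was not tested.

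The strongest Olig2 member around Sox1 stood alone, from 12383353 to 12383652. In blocks 1, 2 and 3 it had 40.96, 31.5 and 0.486 units, at percentiles 92.2, 92.5 and 28.1, so it ranked alike in blocks 1 and 2 while block 3 was low. The other 5 Olig2 peaks without a partner had 6.96 to 10.9 units in block 1 and 3.27 to 16.4 in block 2. In block 3 they ranged from 0.355 units at 12555772 (percentile 17.2) to 1.89 at 12481906 (percentile 96.98). The part of block 3 in these peaks was not tested.

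Gli3 met Olig2 in the region from 12430211 to 12430536, with 26 bp between the centres. The Olig2 peak there was the weakest of the 10 in block 1, with 6.71 units (percentile 12.5), and had 9.91 units in block 2 (percentile 57.6) and 1.12 in block 3 (percentile 79.9). No coverage of Gli3 was analysed here.

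**Figure D4:**
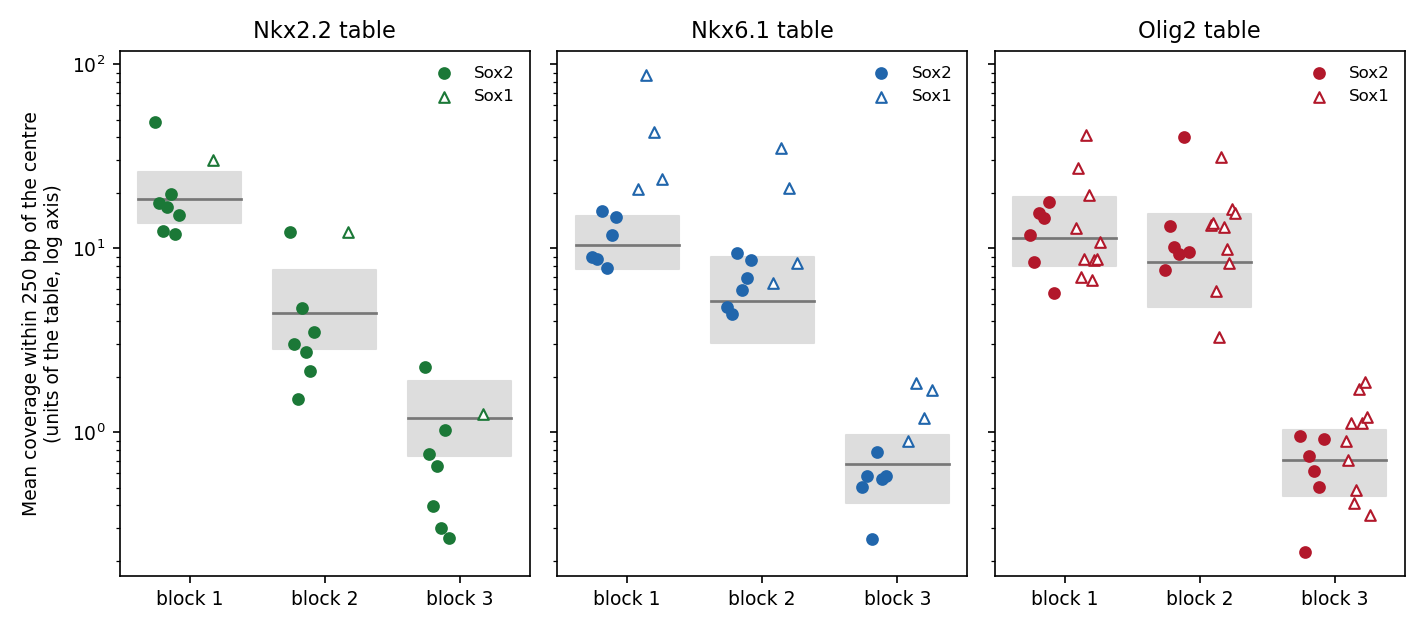
Mean coverage within 250 bp of the centre of each ventral member peak (log axis, units of each table), by block; filled circles are Sox2 peaks and open triangles Sox1 peaks, grey boxes run from the first to the third quartile of the whole list and the grey line is its median. All 4 Nkx6.1 peaks around Sox1 lie above the list median of 10.4 units in block 1, of 5.19 in block 2 and of 0.672 in block 3, while 3 of the 6 around Sox2 do so in block 1.

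Set side by side, the loci differed in where strong Nkx6.1 peaks lay. In block 1 the 4 Nkx6.1 peaks around Sox1 had 21.04 to 87.7 units and the 6 around Sox2 had 7.83 to 16. In block 2 the ranges met, with 6.49 to 34.9 units around Sox1 and 4.41 to 9.46 around Sox2. Block 3 differed in the same direction as block 1, with 0.896 to 1.85 units around Sox1 and 0.261 to 0.784 around Sox2. How often the ranges of other pairs of windows lie apart was not computed. Whether the level of block 3 plays a part in the difference was not tested. Peaks of 1 locus share their chromatin and libraries, so they are not replicates and no test was made.

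For Olig2 the ranges of the loci met in blocks 1, 2 and 3. In block 1 the 10 around Sox1 had 6.71, 9.81 and 40.96 units as lowest, median and highest, and the 6 around Sox2 had 5.71, 13.1 and 17.8. In block 2 the same values were 3.27, 13.2 and 31.5 around Sox1 and 7.57, 9.85 and 39.95 around Sox2. In block 3 they were 0.355, 1.01 and 1.89 around Sox1 and 0.224, 0.682 and 0.952 around Sox2. The block 3 median was thus higher around Sox1 here too, and its part was not tested. The median percentile of the Sox1 peaks depended on the block, at 39.7 in block 1 and 69.7 in block 2.

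**Figure D5:**
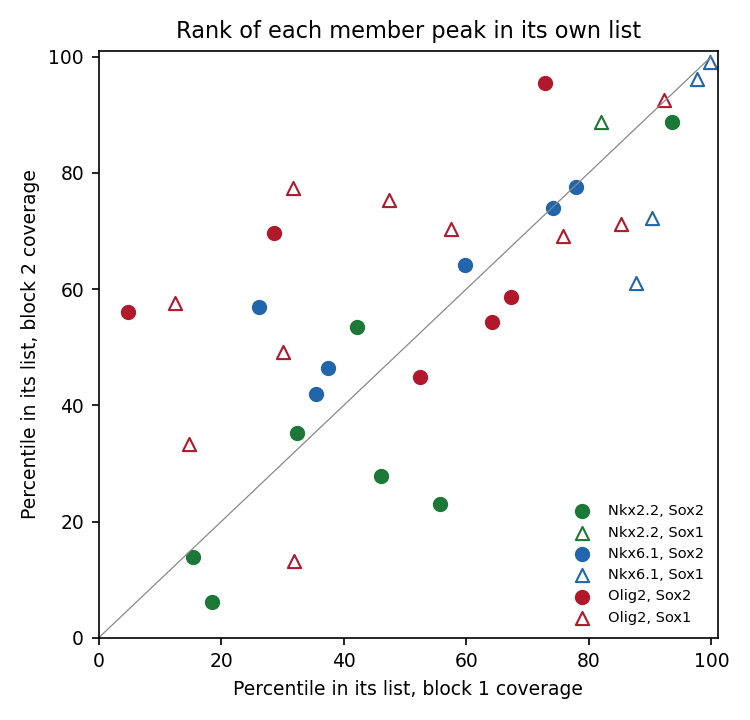
Percentile of each ventral member peak in its own list by block 1 coverage (horizontal) and block 2 coverage (vertical); the line marks equal percentiles, filled circles are Sox2 peaks and open triangles Sox1 peaks. The Nkx6.1 peaks at 12325118 and 12327900 lie in the top right corner, and the Olig2 peak at 34565337 lies far left, at percentile 4.83 in block 1 and 56.02 in block 2.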

How the data were processed

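Members and lists were chosen with earlier results of these data known. Per the submitters' processing notes, Bowtie2 2.2.4, HOMER and mm9 were used; roles, settings, filters and pooling of replicates were not given in the sources used here. As deposited by the authors, the files are 4 peak lists of 300-bp intervals without scores, and 3 coverage tables at 25-bp steps in units whose scaling is not given, so read depth is unknown. Each table row was matched to the list line of the same number; as a check, neighbouring peaks of a list (up to 1000 bp apart, at a whole number of steps) had equal values at all aligned positions (5007 for Nkx2.2, 1506 for Nkx6.1, 6366 for Olig2). Values within 1e-06 counted as equal, and 10 steps at each edge of a profile were left out of this check. No column of another sample was left out (0). Positions are printed 1-based.

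Regions are unions of peaks sharing at least 1 bp. Densities use the sum of the last peak position of each chromosome. Values were computed with Python 3.11.15, numpy 2.4.6 and pandas 2.3.3, and the overlap, region and percentile functions were tested on simulated peaks. No test between conditions was made. Peaks described one by one were all regions of 2 or more lists, all Gli3 peaks and the peak of each ventral list with the highest block 1 coverage in each window; the Olig2 peak at 34565337 and the Nkx2.2 peaks at 34343725 and 34381139 were chosen after their values were seen. Alternatives were other window limits, overlap rules, centre widths, a flank ratio and other blocks.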

Additional observations from a re-analysis of the deposited data

How the results depend on the processing

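Of 54 recomputed values, 39 stayed within 1.5 times (counts) or 10 points (percentiles) of the reported value and 15 moved. Some median percentiles crossed the median of their list. That of Nkx2.2 around Sox1 went from 82.03 to 7.57 over the right flank, and that of Olig2 there from 39.7 to 69.7 in block 2. Windows narrowed by 50 kb on each side, overlap of at least 150 bp and a centre of 100 bp on each side moved none by these limits. For narrowed windows only peak counts were recomputed, not regions or percentiles. Around Sox2 they kept 5 of 7 Nkx2.2 and 5 of 6 Nkx6.1 peaks. The strongest Nkx2.2 member, at 34221514, and the Nkx6.1 peak that overlaps it were among those left out. Windows widened by 50 kb on each side gave 3 Nkx2.2 and 2 Gli3 peaks around Sox1. Centres within 1000 bp put 2 Gli3 peaks around Sox2 at a ventral peak, and the share of all Gli3 peaks by this rule was not computed.

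The median percentiles moved with the block and with division by the right flank. For Nkx2.2 around Sox2 it was 27.9 in block 2, 19.97 in block 3, 14.9 for the mean log2 over blocks, block 3 included, and 60.7 over the right flank. For Nkx6.1 around Sox2 it was 60.5 in block 2 and 59.5 over the flank, and for Olig2 there it was 47.7 in block 3. Around Sox1, Nkx2.2 gave 52.3 in block 3 and 7.57 over the flank, and Olig2 gave 69.7 in block 2, 72.9 in block 3 and 62.7 for the mean. The cause was not tested, except that the raised flank sets the value of 7.57. Each list is 1 file and the blocks name no library, so no replicate could be left out. No paired analysis was possible because neither lists nor blocks carry replicate numbers. The depth is unknown.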

Other observations

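The Olig2 profile at 34565337 around Sox2 held a further summit where no list has a peak. In block 1 it reached 12.2 units at 34564611, against 12.7 at the centre, and in block 2 it reached 18.7 units at 34564636, against 16.4. Block 3 was highest elsewhere in this profile, with 2.35 units at 34563936.

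At the Nkx2.2 peak at 34343725 the highest block 2 value lay outside the peak, with 6.34 units at 34342999 against 4.88 within 250 bp of the centre, while block 1 had its summit of 62.2 units in the peak. Block 3 was also highest there, with 2.45 units at 34342949.

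These positions were chosen after their values were seen.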
